A study of Mus musculus with 4 samples.

Results

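Gapdh encodes glyceraldehyde-3-phosphate dehydrogenase, and it is 1 of the 397 genes of a targeted immune panel that was read in single cells from the brains of 4 mice. The gene was chosen by its share of reads in these same data, which differed between the Abi3 genotypes and between groups of cells, so its own levels and differences are given here as a description, with no test. All 4 mice were 9-month-old males that carried the 5XFAD transgenes, which lead to amyloid deposits in the brain, and 2 were Abi3-/- and 2 were Abi3+/+. The Abi3-/- animals carried a constitutive deletion, so every cell type lacked the gene. By the study's methods, the mice it analysed were also heterozygous for a Trem2 variant that comes with the SJL background. Cells came from the right hemisphere without the cerebellum or olfactory bulb, dissociated in the cold and depleted of myelin, a preparation meant to enrich glia. Abi3 itself was not analysed here, so the genotype labels were not checked against its level.

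The enzyme catalyses a central step of glycolysis, the breakdown of glucose in the cytosol. Because the reaction is needed in nearly every cell, Gapdh is widely used as a reference gene, a gene against which the level of others is expressed. It was the reference for quantitative PCR of Abi3 in this study. Glycolysis is not equally active in all cells: immune cells that become activated, and cells that divide, are known to raise it, and Gapdh RNA is then not constant.

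Gapdh lies on chromosome 6, minus strand, at chr6:125161852-125166467 of GRCm38 (the build that the labels call mm10), by RefSeq. It has many processed copies elsewhere in the mouse genome. The last 200 bases of its GENCODE transcript matched 38 other places in the GRCm39 reference at an identity of at least 95% over at least 90% of their length, and 3 of these were identical to it. Which stretch of Gapdh the panel reads is not given in the sources used here. Reads from a transcribed copy that is identical over that stretch could not be told apart from reads of Gapdh.

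Of 21172 cells, 13820 had at least 40 genes with a read and no more reads than the study's upper limit, and these cells were described. The deepest of them had 59271 reads. The Abi3-/- mice gave 2321 and 4499 of them and the Abi3+/+ mice 3796 and 3204. The median cell had 24283, 19888, 19648 and 22515 reads, in the order Abi3-/- mouse 1, Abi3-/- mouse 2, Abi3+/+ mouse 1 and Abi3+/+ mouse 2, which is the order of all values below. Between 6 and 18 numbers of these cells occurred in both libraries of a pair. The values are reads and not molecules, so an interval covers counting error only. A level is the share of a cell's reads that Gapdh took, in percent, averaged over the cells of a mouse.

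Gapdh was among the most read genes of the panel. It took 1.25%, 1.47%, 0.994% and 1.15% of all reads of the 4 mice, and ranked 13, 14, 14 and 18 of 397 genes. A read of Gapdh was found in 98.6%, 99.3%, 94.6% and 95.1% of cells.

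The cells fell into 17 clusters, built without Gapdh, and 11 of these, with 12714 cells, were called microglia-like by the detection of C1qa, C1qb, Cx3cr1, Trem2 and Ctsd and the lack of another leading program. Microglia are the resident macrophages of the brain. A pair of the 11 clusters was led by cell cycle genes. One further cluster, of 250 cells, was led by MHC class II genes such as Cd74 and H2-Aa and was left unnamed for that, although on average 98.8% of its cells had a read of each defining microglial gene. It held 167, 29, 44 and 10 cells of the 4 mice. With it counted as microglia-like, a choice made after seeing the data, the log2 ratios of Gapdh given below were 0.46 between genotypes, 0.60 between states and 1.57 for cycling cells. The others were T cell-like, B cell-like, neutrophil-like, macrophage or monocyte-like, and ependymal or astrocyte-like. The last, of 193 cells, was led by F5, Thbd, Ncam1 and Vegfa. Of its 10 leading genes 8 were on the marker list that named it. That list was chosen with earlier results of these data known, so the name is provisional. The study left some of its own clusters without a cell type, as the panel held few marker genes for them. On average 50.5% of the 193 cells had a read of each defining microglial gene, so RNA of microglia was present in these barcodes too.

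**Figure D1:**
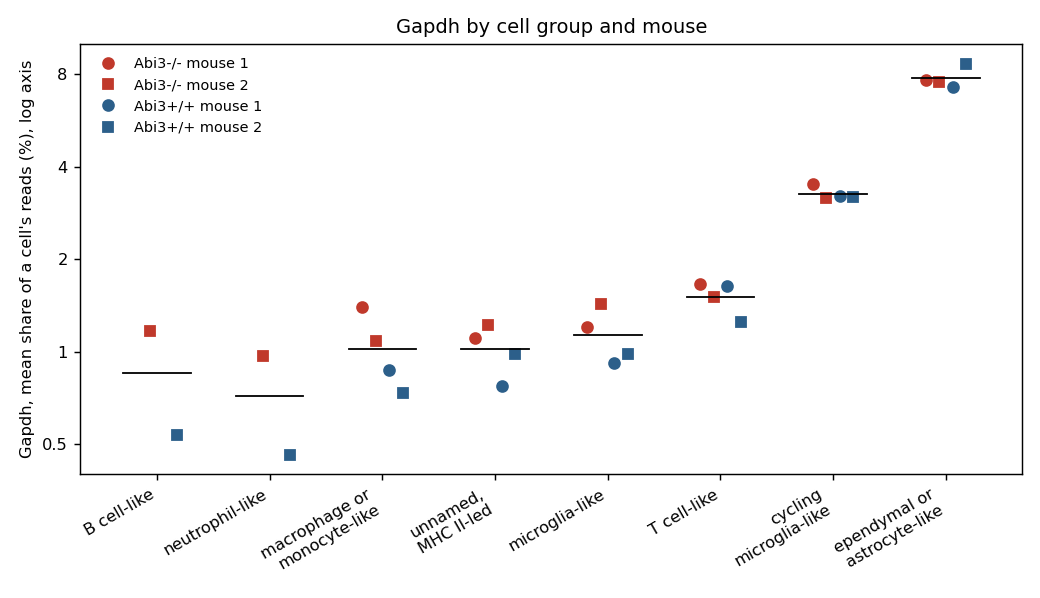
Gapdh by cell group and mouse. Each point is the mean share of a cell's reads (percent, log axis) in 1 mouse with at least 10 cells of the group, red for Abi3-/- and blue for Abi3+/+, and the line is the mean over mice. Cycling microglia-like cells (3.16% to 3.51%) and ependymal or astrocyte-like cells (7.25% to 8.67%) lie above all other groups.

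Gapdh was highest in the ependymal or astrocyte-like cells, where it took 7.68%, 7.54%, 7.25% and 8.67% of reads. The microglia-like cells of the same mice had 1.21%, 1.44%, 0.923% and 0.987%. The ratio within a mouse was 6.93-fold on average (log2 2.79 ± 0.33, SD, n = 4), and no value of either group came near the other. Counted in reads of Gapdh per cell the ratio was 4.08-, 3.11-, 3.91- and 6.41-fold, at a median of 15186 reads a cell against 21220. The median ependymal or astrocyte-like cell had 47 genes with a read, near the lower limit of 40. In the microglia-like clusters the medians were 54 to 92 genes. Cells left out below the limit had still more Gapdh, 9.98% to 11.4% of reads. How far the small number of panel genes read in a cell set its Gapdh share was not tested. Every ependymal or astrocyte-like cell had a read of Gapdh. The same cells were also high in Hprt, the other common reference gene of the panel and an enzyme of purine salvage, which took 1.71%, 1.36%, 0.986% and 2.16% of their reads against 0.234%, 0.271%, 0.268% and 0.295% in microglia-like cells.

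T cell-like cells had 1.66%, 1.51%, 1.63% and 1.25%, above the microglia-like cells of their own mouse in 4 of 4 mice (log2 0.42 ± 0.31, SD, n = 4). This direction depended on the measure and on what the share was taken of. Counted in reads of Gapdh per cell the ratio was 0.981-, 0.805-, 1.30- and 0.868-fold, so below in all but Abi3+/+ mouse 1. Ctsd, a lysosomal protease, alone took 22.8%, 30.2%, 24.2% and 21.7% of microglial reads, but between 1.67% and 2.60% in T cell-like cells. When Apoe, Cst7, Itgax and the 5 genes with the most reads were left out of the total, the log2 ratio of T cell-like to microglia-like cells became -0.51. The ependymal or astrocyte-like cells stayed above on that total, at a log2 ratio of 2.44.

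Macrophage or monocyte-like cells had 1.40%, 1.09%, 0.872% and 0.735%, a log2 ratio to microglia-like cells of -0.17 ± 0.30 (SD, n = 4). Counted in reads of Gapdh per cell the ratio was 1.50-, 1.05-, 1.31- and 0.902-fold, so above in all but Abi3+/+ mouse 2. The unnamed MHC class II cluster had 1.11%, 1.22%, 0.776% and 0.983%. The ranges over mice of both groups overlapped with that of the microglia-like cells, but the MHC class II cluster was below the microglia-like cells of its own mouse in 4 of 4 mice (log2 -0.15 ± 0.11, SD, n = 4). On the total without the most read genes the log2 ratio of macrophage or monocyte-like to microglia-like cells became -1.04. In B cell-like cells only mouse 2 of each genotype had 10 or more cells, with 1.17% in the Abi3-/- and 0.538% in the Abi3+/+ mouse. The neutrophil-like cells of the same mice had 0.972% and 0.463%. On the total without the most read genes their log2 ratios to microglia-like cells moved from -0.59 to -1.54 for B cell-like and from -0.83 to -1.75 for neutrophil-like cells.

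By mean share of all reads the order ran neutrophil-like, B cell-like, unnamed MHC class II cluster, macrophage or monocyte-like, microglia-like, T cell-like, cycling microglia-like and ependymal or astrocyte-like. The ranges over mice of neighbours in this order overlapped up to the T cell-like cells. The last 2 groups did not overlap with any other. The place of T cell-like above microglia-like cells turned on the total without the most read genes, as given above. The neutrophil-like and B cell-like means rest on mouse 2 of each genotype only. By the ratio within a mouse, the MHC class II cluster (log2 -0.15) stood above the macrophage or monocyte-like cells (-0.17).

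Among the microglia-like cells Gapdh was higher in the Abi3-/- mice, at 1.21% and 1.44%, than in the Abi3+/+ mice, at 0.923% and 0.987%. The genotypes did not overlap, and the ratio of their means was 1.38-fold (log2 0.46, pooled SD 0.14, n = 2 and 2). It was larger with mean log-normalized expression, as given in the last section. With 2 mice a genotype an exact two-sided permutation test could not go below p = 0.33 for any value. The difference was not carried by a few cells. The median cell had 1.08% and 1.24% in Abi3-/- mice and 0.743% and 0.825% in Abi3+/+ mice, and the 10th and 90th percentiles were higher in both Abi3-/- mice as well.

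Cells without a read of Gapdh were more frequent in Abi3+/+ mice. They numbered 29 of 2006 and 29 of 4177 microglia-like cells in the Abi3-/- mice and 198 of 3586 and 142 of 2945 in the Abi3+/+ mice. The shares with a read were 98.6% (95% Clopper-Pearson interval 97.9 to 99.0), 99.3% (99.0 to 99.5), 94.5% (93.7 to 95.2) and 95.2% (94.3 to 95.9). The fewest Gapdh reads in a cell that had any were 9 in each Abi3-/- library and 12 in each Abi3+/+ library, so the floor of detection also moved with genotype. With all cells below 12 reads set to 0, the log2 ratio of the genotypes was 0.46 again. Cells with so few Gapdh reads add little to a mean share, so this setting could hardly have moved the ratio. The shares of cells with a read were not compared at a common floor.

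Depth did not separate the genotypes, with medians of 24218, 19900, 19706 and 22678 reads in microglia-like cells. When the cells of each mouse were split into 4 bins of equal size by reads, both Abi3-/- mice were above both Abi3+/+ mice in every bin. In the shallowest bin the values were 1.27%, 1.49%, 0.978% and 0.975%, and in the deepest 1.34%, 1.52%, 1.05% and 1.15%. With each cell thinned to 10000 reads the log2 ratio was 0.47. The mean number of Gapdh reads in a microglia-like cell was 322, 329, 207 and 254.

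Some other sums of reads also moved with genotype. The immediate early genes Jun, Junb, Fosb and Egr1, which respond within minutes to stimulation and to handling, together took 2.33%, 3.23%, 4.14% and 4.76% of microglial reads. Alas2, a red cell gene, took 0.00848%, 0.00433%, 0.000209% and 0.000501%. MHC class II genes took 0.561%, 0.472%, 0.413% and 0.365%, and the 14 genes of the B cell list, 6 to 10 of them at 0 in each library, took 0.433%, 0.379%, 0.512% and 0.469%. The 10 cell cycle genes took 0.159%, 0.216%, 0.236% and 0.242%, lower in both Abi3-/- mice. The part of these in the Gapdh difference was not tested. In microglia with no read of Apoe, Cst7 or Itgax, the ratio of Gapdh in Abi3-/- to Abi3+/+ mice was 1.57-fold in cells with a read of at least 3 of the 4 immediate early genes and 1.54-fold in cells with fewer, a split by detection that does not make their levels equal between genotypes.

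The panel gives the background for this difference. Reads were summed over the microglia-like cells of each mouse and fitted for 321 genes with edgeR's quasi-likelihood test after TMM scaling, which matches libraries on the bulk of their genes. On that scale Gapdh was 0.63 higher in Abi3-/- mice (log2, SE 0.17), and on total reads 0.44, because the scalings differ by about the same amount for all genes: the median gene stood at 0.01 with TMM and at -0.18 on total reads. In size, Gapdh ranked 109 of 321. Both Abi3-/- mice were above both Abi3+/+ mice for 64 of 321 genes, or 19.9%, and below them for 56, or 17.4%, so the lack of overlap seen for Gapdh was shared by a large part of the panel. After Benjamini-Hochberg adjustment edgeR called 0 of 321 genes (0.00%), with 26 at an unadjusted p under 0.05, and DESeq2 called 11.

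As edgeR called no gene between genotypes, the count of calls says nothing of any list. The disease-associated list had a median log2 difference of 0.41, from -0.16 for Lgals3 to 1.22 for Spp1, and the immediate early list one of -0.51, from -1.38 for Fosb to 0.38 for Junb. The 13 genes of the reference list, taken for their general cell functions, had a median log2 difference of 0.05 against 0.01 for all genes, and ranged from -0.23 for Cnot2, of the deadenylase complex, to 0.48 for Kdelr1, a retention receptor of the secretory pathway. Hprt was at 0.05 (SE 0.15, edgeR adjusted p = 0.96). Hif1a, the oxygen-sensing transcription factor of the hypoxia and glucose list, whose members respond to oxygen, heme or iron, was at 0.24 (SE 0.30, edgeR adjusted p = 0.94).

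Microglia of amyloid-bearing brains take up a disease-associated state, in which genes such as Apoe, Cst7 and Itgax are switched on and homeostatic genes are lowered. The microglia-like cells were placed in 5 states by whether they had a read of these 3 genes. Cells with none made up 18.6%, 31.4%, 52.6% and 48.8% of microglia-like cells, and cells with all 3 made up 14.2%, 18.5%, 8.84% and 12.9%. The cells with none were thus a smaller part in both Abi3-/- mice than in either Abi3+/+ mouse.

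Gapdh was higher in cells with all 3 genes than in cells with none in 4 of 4 mice. The cells with none had 1.12%, 1.28%, 0.735% and 0.802% and the cells with all 3 had 1.46%, 1.61%, 1.39% and 1.42%. The ratio within a mouse was 1.30-, 1.26-, 1.89- and 1.77-fold (log2 0.62 ± 0.30, SD, n = 4), larger in both Abi3+/+ mice than in either Abi3-/- mouse. Counted in reads per cell the ratio was 2.21-, 2.37-, 3.43- and 2.90-fold, since cells with all 3 genes also had more reads, with a median of 34790 against 18373. The log2 ratio of shares was 0.61 with all cells at 10000 reads and 1.14 with the most read genes and the 3 state genes left out of the total.

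**Figure D2:**
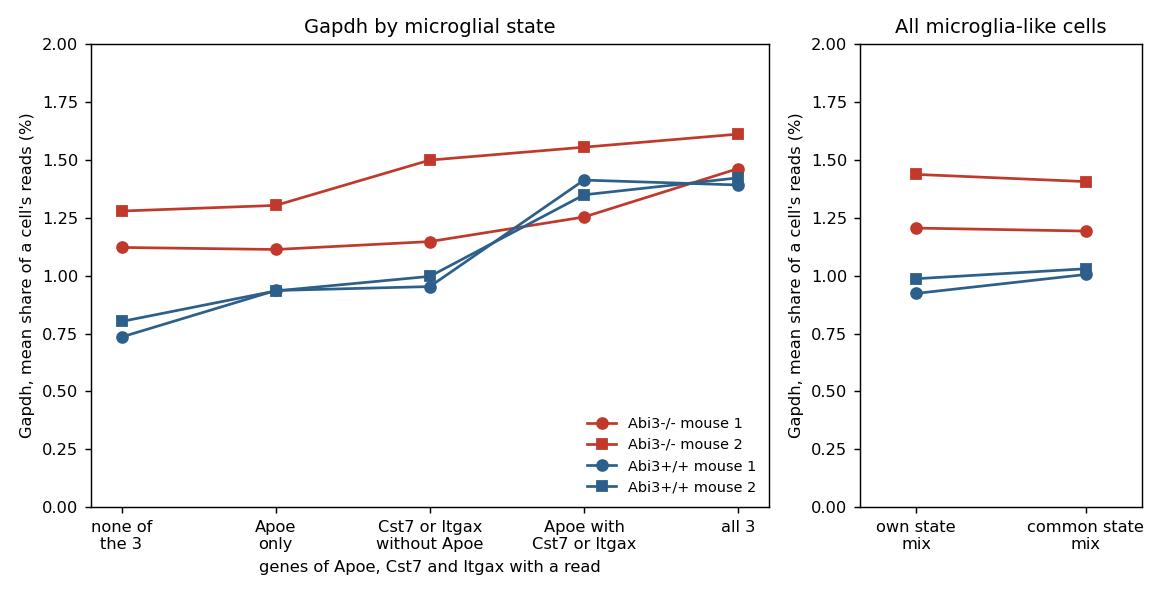
Gapdh by microglial state. On the left, the mean share of a cell's reads (percent) in each of the 5 states set by reads of Apoe, Cst7 and Itgax, with 1 line a mouse, and on the right the mean over all microglia-like cells with each mouse's own mix of states and with 1 common mix. The genotypes lie apart in cells with none of the genes (1.12% and 1.28% against 0.735% and 0.802%). In cells with all 3 they lie close together without overlap (1.46% and 1.61% against 1.39% and 1.42%).

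The intermediate states showed where the genotypes met. Cells with Apoe only had 1.11%, 1.30%, 0.936% and 0.934%, and cells with Cst7 or Itgax but no Apoe had 1.15%, 1.50%, 0.953% and 0.997%. In both, the Abi3-/- mice were above, by 1.29- and 1.35-fold. Cells with Apoe and 1 of the other genes had 1.25%, 1.55%, 1.41% and 1.35%, so that the genotypes overlapped and their means differed by 1.01-fold. In cells with all 3 the ratio was 1.09-fold, and both Abi3-/- mice were above both Abi3+/+ mice. In cells with none the ratio was 1.56-fold. Whether the ratio differs between states was not tested. In edgeR fits within each state, the Gapdh values were 0.67 in cells with none (log2, SE 0.13) and 0.07 in cells with all 3 (SE 0.26), and edgeR called 0 genes in either, with 24 and 9 at an unadjusted p under 0.05.

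The clusters gave a finer view of the same cells, and the genotypes were spread unevenly over them. A cluster led by Fosb, Egr1 and Jun held 93, 196, 1274 and 780 cells, one led by Qpct and Junb held 275, 1148, 228 and 130, and one led by Irf7 and Cd22 held 730, 441, 207 and 123. A cluster led by Cst7, Apoe, Itgax and Lilrb4a had 1152 cells and a median of 18858 reads and 54 genes with a read. It had the highest Gapdh of the microglia-like clusters not led by cell cycle genes. The values were 1.85%, 2.10%, 1.96% and 1.89%, and the genotypes overlapped there. A deeper cluster led by Lilrb4a, Cst7 and Csf1, with 1531 cells and a median of 36618 reads, had 1.62%, 1.63%, 1.39% and 1.36%. The cluster led by Egr1, Slc25a37 and Lat2, with 1679 cells, had 1.16%, 1.2%, 0.716% and 0.806%, a 1.55-fold ratio between genotypes.

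**Figure D3:**
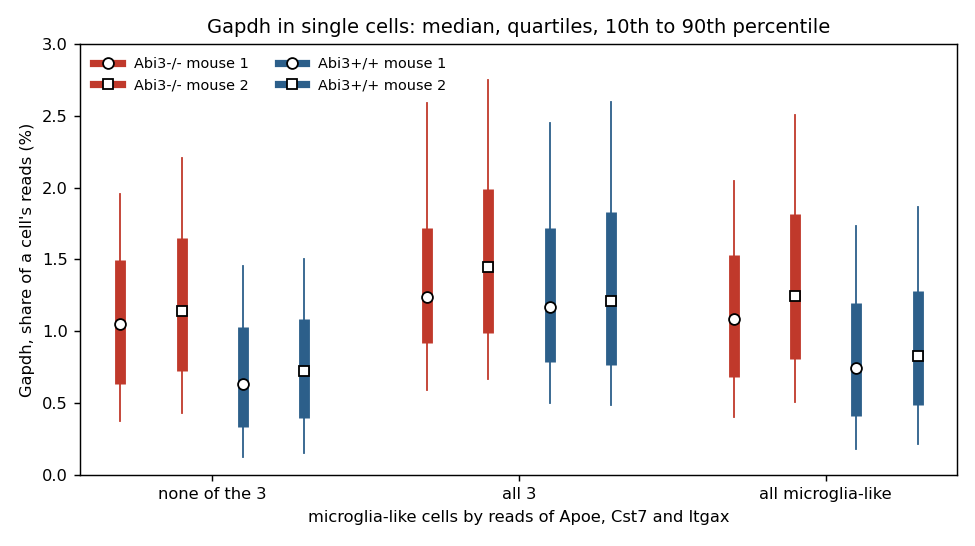
Gapdh in single microglia-like cells. For each mouse the white marker is the median cell's share of reads (percent), the thick bar the quartiles and the thin line the 10th to 90th percentile. In cells with none of Apoe, Cst7 and Itgax the medians of the Abi3-/- mice (1.05% and 1.14%) lie above those of the Abi3+/+ mice (0.630% and 0.719%), and in cells with all 3 the bars of the genotypes largely cover each other.

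A smaller part of the genotype difference went with the mix of states than with the level within states. With every mouse given the same mix, the mean of the 4 mice, Gapdh was 1.19%, 1.41%, 1.01% and 1.03%. The genotypes still did not overlap, and their ratio fell from 1.38-fold to 1.27-fold (log2 0.35, pooled SD 0.12). This ratio too was larger with mean log-normalized expression, as given in the last section. Split by arithmetic, 0.0852 of the difference in percentage points, or 23.2%, went with the mix and 76.8% with levels within states. Of the latter, 58.0% came from cells with none of the genes. Taken over the 4 pairs of 1 Abi3-/- and 1 Abi3+/+ mouse, the part that went with the mix was between 15.3% and 36.7%. The split is arithmetic over 5 states set by detection, and differences of state within them were not removed.

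Beside Gapdh, the same contrast of cells with all 3 genes against cells with none was fitted for 286 genes with mouse as a block, and edgeR called 127 of them, or 44.4%. Of these 62 (21.7%) were higher and 65 (22.7%) lower with TMM, and 35 higher and 112 lower of 147 on total reads, as the median gene stood at -0.25 with TMM and at -0.83 on total reads. Gapdh was at 1.15 (log2, SE 0.16) with TMM and 0.56 on total reads, and ranked 69 of 286 from the highest. All 12 tested members of the disease-associated list rose, with a median of 1.99. Among them were Spp1 (osteopontin) at 5.25 and Fth1 (ferritin heavy chain, which stores iron) at 1.31, with edgeR adjusted p = 4.8e-04 and 0.0041. These genes are known to mark the same state as the 3 genes that defined the cells. Of the homeostatic list 6 of 7 fell, with Cx3cr1, the fractalkine receptor, at -0.96 (edgeR adjusted p = 0.0011). All 6 immediate early genes fell, by 0.50 to 1.73. Both of these falls were larger on total reads.

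Hif1a rose with the state. Its share was 0.188%, 0.266%, 0.220% and 0.251% in cells with none and 0.376%, 0.562%, 0.499% and 0.595% in cells with all 3, without overlap (log2 1.70, SE 0.11, edgeR adjusted p = 2.1e-04, and 1.11 on total reads). Hif1a protein is a known activator of glycolytic genes, Gapdh among them. Whether it acted on Gapdh in these cells was not tested. Of the hypoxia and glucose list 3 of 5 tested genes rose, against 21.7% of all genes, the others being Cxcr4, a chemokine receptor, at 6.50 and Hmox1, heme oxygenase, at 0.52, which was at -0.07 on total reads, where 35 of 286 genes were higher. Cxcr4 was near the floor, at 4.4e-05% to 2.3e-04% of reads in cells with none and 0.0035% to 0.0086% in cells with all 3. Tfrc, the transferrin receptor, was at -0.03 and was not called.

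Of 13 reference candidates tested, 2 rose and 2 fell with TMM, against 44.4% of all genes called. Their median was -0.13, or -0.72 on total reads, against -0.25 and -0.83 for all genes. Hprt was at 0.16 (SE 0.07, edgeR adjusted p = 0.14) with TMM and at -0.43 on total reads. Its shares were 0.248%, 0.300%, 0.286% and 0.314% in cells with none and 0.219%, 0.218%, 0.212% and 0.222% in cells with all 3. As a share of the same reads Gapdh was thus higher and Hprt lower in cells with all 3, in 4 of 4 mice. Lamp1, a lysosomal membrane protein, had 1.96%, 1.73%, 1.89% and 1.83% against 1.91%, 1.71%, 1.80% and 1.89%, nearly the same in every mouse. It was at 0.57 with TMM (edgeR adjusted p = 0.0049) and at -0.02 on total reads, so its call came with the scaling. Igbp1, a regulator of phosphatases, rose by 0.63 (0.04 on total reads), and Cnot2 fell by 0.80.

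Cycling cells, those with reads of at least 2 of Top2a, Mki67, Ube2c and Aurkb, which act in chromosome handling and mitosis, were rare. They numbered 10, 48, 24 and 23, or 105 of 12714. Their Gapdh took 3.51%, 3.16%, 3.21% and 3.19% of reads, against 1.19%, 1.42%, 0.908% and 0.969% in the other microglia-like cells. The ratio of shares within a mouse was 2.95-fold on average (log2 1.56 ± 0.29, SD, n = 4) and above 2-fold in each. In reads of Gapdh per cell it was 3.50-, 1.81-, 3.24- and 3.08-fold. Unlike the other cells, cycling cells of the genotypes overlapped. Every cycling cell had a read of Gapdh, at a median of 23273 reads a cell.

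Part of this height came from cells poor in microglial genes. In 14 of the 105 cells fewer than 4 of the 5 defining genes had a read. These were 1, 6, 4 and 3 cells, too few for a level per mouse, and Gapdh took between 0.494% and 13.9% of the reads of a cell. The remaining 91 had 3.07%, 2.32%, 2.42% and 2.65%, where the first value rests on 9 cells. Among cells with at least 4 of the 5 genes the log2 ratio of cycling to other cells was 1.24. The cycling cells were also above the cells with all 3 state genes, by 2.22-fold on average over all 4 mice, and by 1.67-fold over 3 mice in cells with 4 or 5 defining genes. In reads of Gapdh per cell the ratio in the latter was 1.03-, 1.34- and 1.23-fold.

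**Figure D4:**
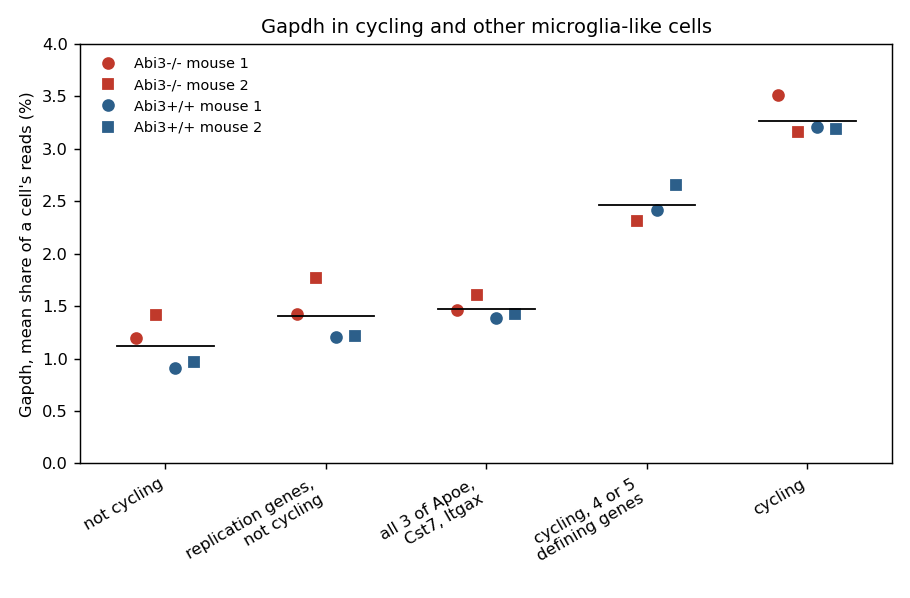
Gapdh in cycling and other microglia-like cells. Each point is the mean share of a cell's reads (percent) in 1 mouse with at least 10 cells, and the line is the mean over mice. Cycling cells lie between 3.16% and 3.51%, or between 2.32% and 2.65% when only cells with 4 or 5 defining microglial genes are kept, and all lie above the cells with all 3 of Apoe, Cst7 and Itgax.

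Cells with reads of replication genes that were not counted as cycling stood between. There were 300 of them, with 1.43%, 1.77%, 1.21% and 1.22%. In 4 of 4 mice this was above all microglia-like cells not counted as cycling, these 300 included, by 1.26-fold on average. Here the Abi3-/- mice were again above the Abi3+/+ mice. The cluster of 181 cells led by Pask, Aurkb and 2810417H13Rik had a mean of 1.05%, against 1.14% in all microglia-like cells. By genotype it had 1.15% in Abi3-/- and 0.957% in Abi3+/+ mice, against 1.32% and 0.955%. The other cluster led by cell cycle genes, with Top2a first, had 3.28% over 3 mice.

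Over 300 genes fitted between cycling and other cells, edgeR called 46, or 15.3%, with 14 higher (4.67%) and 32 lower (10.7%). On total reads it called 34, with 21 higher and 13 lower, and the median gene stood at -0.80 with TMM and at -0.48 on total reads. Without Abi3+/+ mouse 2 the count was 19, and DESeq2 called more genes than edgeR, as given in the last section. Gapdh was at 1.04 (log2, SE 0.18) and ranked 27 of 300 from the highest. The 6 cell cycle genes not used to find the cells all rose, from 2.98 for Pcna, the sliding clamp of DNA polymerase, to 8.60 for 2810417H13Rik, a Pcna-binding factor. Trem2, a lipid receptor, fell by 0.83 (edgeR adjusted p = 0.0017) and Adgre1, which encodes F4/80, by 1.40 (edgeR adjusted p = 9.9e-04), and 4 of 7 homeostatic, 4 of 6 immediate early and 5 of 15 disease-associated genes fell. The medians of these 3 lists, -0.74, -0.85 and -0.74, were near that of all genes with TMM. On total reads Adgre1 and Tmem173 of the homeostatic, Junb of the immediate early and Apoe, Cd63 and Trem2 of the disease-associated list still passed the test, and the other 7 falls did not. Without Abi3+/+ mouse 2 the falls of Adgre1, Tmem173, Junb and Cd63 passed, and neither that of Trem2 nor the rise of Cd52 did. Cd52, a surface glycoprotein, rose by 1.01 (edgeR adjusted p = 0.012).

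Of the reference candidates only Lamp1 was called in cycling cells, 0.50 lower (edgeR adjusted p = 0.016). The call was lost on total reads, at -0.19 (adjusted p = 0.41), and without Abi3+/+ mouse 2, at -0.43 (adjusted p = 0.22), or Abi3+/+ mouse 1, at -0.50 (adjusted p = 0.099). Hprt was at 0.39 (SE 0.24, edgeR adjusted p = 0.35), with shares of 0.397%, 0.421%, 0.270% and 0.628% in cycling and 0.233%, 0.269%, 0.268% and 0.293% in other cells. None of the 6 hypoxia and glucose genes was called, and Hif1a was at -0.60 (SE 0.20, edgeR adjusted p = 0.082). Gapdh was thus higher with the disease-associated state and in the cells counted as cycling. By its mean over mice it was not higher in the cluster led by Pask and Aurkb. Hif1a rose with the state and did not pass the test in cycling cells. A link between Hif1a and Gapdh was not tested.

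A reference gene should vary little over the groups that are compared. Over 44 values, each 1 group of cells in 1 mouse (5 microglial states, cycling cells and 6 other groups), log2 Gapdh had an SD of 0.98 and an 18.7-fold range. Among 25 genes with a read in at least 80% of microglia-like cells of every mouse, some of which are known to be largely restricted to myeloid cells, this was the fifth smallest SD, after Fth1 at 0.60, Itgb2 (an integrin subunit of leukocytes) at 0.77, Btg1 at 0.83 and Lgals9 at 0.84. Of the 25 genes, 9 were at 0 in at least 1 group and were ranked last. Hprt, which was read in too few cells to enter the ranking, had an SD of 1.06 and a 78.0-fold range. The rank across cell types is partly set by this choice of genes by their detection in microglia, and says little of Gapdh itself.

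**Figure D5:**
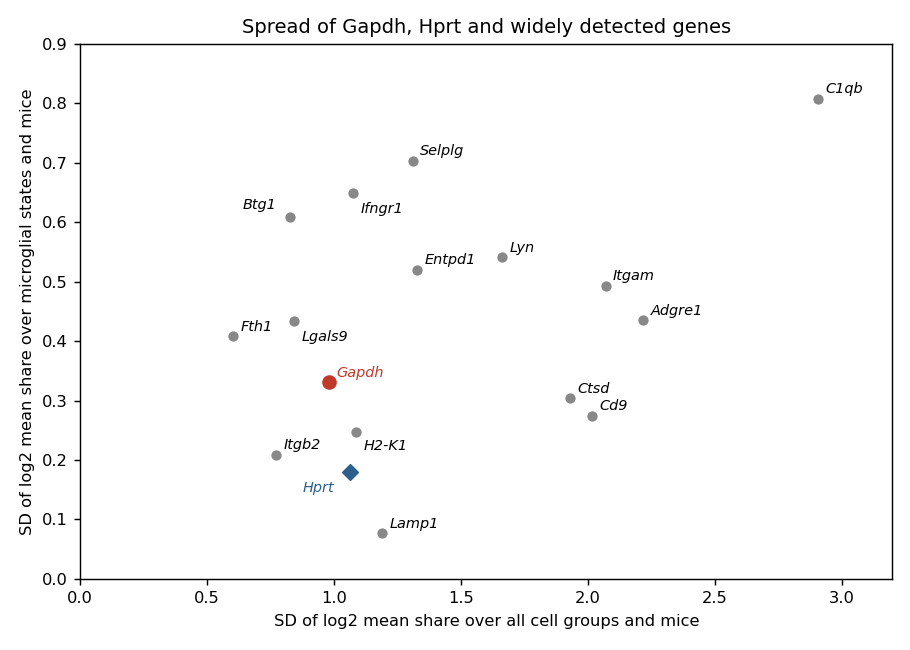
Spread of Gapdh, Hprt and widely detected genes. The horizontal axis is the SD of the log2 mean share over 44 values of cell group and mouse, and the vertical axis the SD over 20 values of microglial state and mouse, for the genes with a value in every group. Gapdh (0.98 and 0.33) is among the lower genes across groups, and Hprt (0.18) and Lamp1 (0.08) lie below it within microglial states.

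Within microglia the order was different. As shares of all reads, over 20 values of state and mouse, Gapdh had an SD of 0.33 and a 2.22-fold range, rank 14 of 25. Lamp1 was the steadiest, with an SD of 0.08 and a 1.22-fold range, followed by Fcer1g, the signalling chain of Fc receptors, at 0.12 and Cd14, a lipopolysaccharide co-receptor, at 0.15. This order depends on the scaling. With TMM these 3 genes rose with the state, by 0.57, 0.54 and 0.49 (edgeR adjusted p = 0.0049, 0.011 and 0.0096), while Hprt, at 0.16, and Itgb2, at 0.19, did not pass the test. Hprt had an SD of 0.18 and a 1.46-fold range. The ratio of Gapdh to Hprt varied more than either gene, with an SD of 0.46 and a 2.91-fold range, as Gapdh was higher and Hprt lower in cells with all 3 state genes. Over the 44 values of all cell groups the ratio varied less than either gene, with an SD of 0.59 and a 7.63-fold range. Between single microglia-like cells of a mouse with none of the state genes, cycling cells left out, the coefficient of variation of the Gapdh share, which includes sampling noise, was 0.593, 0.596, 0.753 and 0.712, and its mean ranked 14 of 25.

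Dividing the panel by a reference gene subtracts that gene's own log2 difference from every other gene, so the shift restates that difference and tests nothing. Between Abi3-/- and Abi3+/+ microglia-like cells, the median log2 difference of the other genes was 0.01 with TMM. It was -0.62 when divided by Gapdh, -0.40 by Fth1, -0.17 by Lamp1 and -0.04 by Hprt. Between cells with all 3 state genes and cells with none it was -1.57 with Fth1, -1.40 with Gapdh, -0.83 with Lamp1 and -0.42 with Hprt, against -0.25 before. Between cycling and other cells it was -1.85 with Gapdh, -1.20 with Hprt and -0.98 with Fth1, against -0.81 before, and moved the other way with Lamp1, to -0.31.

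The genes most like Gapdh were found by Pearson correlation of log2 shares over the 44 values, among 106 genes with a read in at least 20% of microglia-like cells of every mouse. The highest were Hprt at 0.83, Fth1 at 0.76, and Rpn2 and Vps28 at 0.71 each. The lowest were Casp1 at -0.61, Ptprc at -0.59 and Dock8 at -0.50. These points share libraries and totals, so the values are a description. They may be carried by the ependymal or astrocyte-like cells, which had the highest Gapdh, and this was not tested. Over the 20 values within microglia the likeness did not hold for all: it was 0.85 for Fth1, but -0.58 for Hprt, -0.86 for Rpn2 and -0.52 for Vps28.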

How the data were processed

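Single cells of 4 mice were read with the BD Rhapsody Mouse Immune Response Panel. The deposited values are counts of reads per gene and cell that the authors made with BD's own pipeline for targeted libraries, left at its defaults, including its distribution-based error correction. This correction acts on each library separately, which can set the fewest reads at which a gene is kept. The gene, its groups of cells and the gene lists were chosen with earlier results of these data known.

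The study's methods give the lower limit on cells as 40 unique reads, which is not the rule used here. Cells with at least 40 genes with a read and no more reads than the study's upper limit were kept. They were clustered without Gapdh with Seurat 5.3.0 (10 principal components, resolution 0.8), and a cluster was named when at least 3 of its 10 leading genes were markers of a type, left unnamed when at least 3 were MHC class II genes, and otherwise called microglia-like when the 5 defining genes had a read in 80% of its cells on average. No doublet caller was run beyond the upper limit on reads. Rebuilt clusters need not match those of the study.

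A level is the mean over cells of the share of reads, per mouse, and groups with under 10 cells in a mouse gave no value for it, except where the text gives the smaller number of cells. Gapdh carries no test. For the panel, reads were summed per mouse and fitted with edgeR 4.0.16 (filterByExpr, TMM, quasi-likelihood, Benjamini-Hochberg, threshold 0.05), with mouse as a block between states and classes, and the genes that define a contrast left out. Scripts were tested on simulated data: the fits gave false calls when most genes of the panel were changed and replicates varied little, and missed most changed genes at the common dispersion of the real libraries, so counts of calls are uncertain in both directions. Named genes were Gapdh, Hprt, list members that were called or, of the rest, up to 5, the 5 most and 3 least like Gapdh, the 5 most read and the 3 steadiest; the other steady genes and the genes that lead clusters were named after their values were seen. Some genes that this rule names are not reported here. The replicates are separate animals, and p-values cover the spread between these mice.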

Additional observations from a re-analysis of the deposited data

Results flagged for a closer look

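Gapdh was far higher in the cells left out for having fewer than 40 genes with a read, which no comparison used. It took 11.4% of reads in 870 such cells of Abi3-/- mouse 1, 10.4% in 1502 of Abi3-/- mouse 2, 9.98% in 1917 of Abi3+/+ mouse 1 and 10.2% in 1385 of Abi3+/+ mouse 2, against 1.26%, 1.5%, 1.01% and 1.16% in the cells kept. With reads pooled over cells the left-out cells had 10.4%, 9.02%, 9.11% and 9.28%, so the order of the genotypes there depended on the measure. The number of Gapdh reads in a median left-out cell, 246.5, 218.5, 212 and 234, stood against 266, 253, 149.5 and 190 in the cells kept, lower in the Abi3-/- and higher in the Abi3+/+ mice, while all reads of the median cell came to 2378, 2358, 2373 and 2500. A read of C1qa was found in 20.8%, 24.0%, 22.5% and 20.4% of these cells. In the cells left out for reads above the study's upper limit Gapdh took 1.54%, 1.40%, 1.28% and 1.31%. With 2 mice a genotype, no single mouse could be tested as standing apart.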

How the results depend on the processing

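Of the values and counts that answer a comparison, 160 of 178 under another setting kept their direction and moved by less than the spread between mice (counts, by less than 1.5 times). With mean log-normalized expression the log2 ratio of Abi3-/- to Abi3+/+ became 0.76, that at a common state mix 0.62, and that of B cell-like cells -1.74, or -0.17 with reads pooled over cells. With Apoe, Cst7, Itgax and the 5 most read genes left out of the total, cells with all 3 state genes stood at 1.14 over cells with none, T cell-like cells reversed to -0.51, B cell-like cells were at -1.54, neutrophil-like at -1.75, macrophage or monocyte-like at -1.04 and ependymal or astrocyte-like at 2.44. Without a filter on cells, cycling cells were at 1.18 and ependymal or astrocyte-like cells at 3.39. In cells with at least 4 of 5 defining genes, a setting chosen after seeing the data, cycling cells were at 1.24; the cause was not tested for any of these.

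Leaving out each mouse in turn gave 0.34 to 0.59 for the genotype ratio, 0.24 to 0.50 at a common state mix, 0.51 to 0.71 for the state ratio, 1.48 to 1.70 for cycling cells, 0.29 to 0.54 for T cell-like, -0.88 to -0.30 for B cell-like, -1.09 to -0.56 for neutrophil-like, -0.30 to -0.09 for macrophage or monocyte-like and 2.68 to 2.93 for ependymal or astrocyte-like cells, and an SD of 0.90 to 1.04 for Gapdh over cell groups. The genotype ratio at a common state mix was 0.50 without Abi3-/- mouse 1. Counts of called genes ranged from 0 to 2 between genotypes, 86 to 121 between states and 19 to 47 for cycling cells. DESeq2 called 11 genes between genotypes (8 higher, 3 lower), 157 between states and 78 for cycling cells. On total reads Hmox1 and Lamp1 reversed between states, to -0.071 and -0.022. Of the named calls in cycling cells, 8 were lost on total reads, 11 without Abi3+/+ mouse 2 and 4 in cells with at least 4 defining genes.

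The mice share only the numbers 1 and 2 across genotypes (correlation of same-numbered mice 0.30 over 321 genes). With a replicate block edgeR called 0 genes between genotypes, and with no replicate block 106 between states and 61 for cycling cells. The cycling, B cell-like and neutrophil-like values rest on few cells, at a median depth of 23273 reads in cycling and 28004.5 in neutrophil-like cells, and 2 mice a genotype limit every genotype comparison.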
